A study of Drosophila melanogaster with 2 samples.

Results

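Pita was mapped by chromatin immunoprecipitation with sequencing (ChIP-seq) in whole Drosophila melanogaster embryos, and the regions described here are the candidate Pita regions on chromosome 4. They were taken from the pooled candidate list on the dm6 genome build, by chromosome name, and numbered 492 of 30000. The flies were a transgenic line stably expressing Pita with green fluorescent protein (GFP) fused to its C-terminal end, and embryos of 0 to 24 hours, males and females pooled, were used. Sonicated chromatin of 200 to 800 bp was pulled down through the GFP tag. The 2 libraries, labelled biological replicates 1 and 3, formed 1 group, so no condition was compared, and control libraries were not analysed here. Every cell type of the embryo was in the sample, so binding in few cells and weak binding in many cells could not be told apart.

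Pita is a zinc-finger DNA-binding protein that acts at insulators, elements that separate neighbouring regulatory domains, and it also binds at many gene promoters. Chromosome 4 is the small dot chromosome of the fly. It is largely packaged as heterochromatin carrying HP1a and is rich in repeats, yet it carries active genes, among them a set of developmental transcription factors, and its genes are bound by the chromosome-specific protein POF. It therefore offers a view of a promoter-binding insulator protein in gene-bearing heterochromatin.

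The candidate list is the input to the irreproducible discovery rate (IDR) procedure, which keeps peaks whose ranks repeat between replicates, and by its own name it holds background as well as peaks. A candidate was called marked when its summit lay within 100 bp of a summit of the authors' final (optimal) IDR list, which held 1338 summits. On chromosome 4, 16 of the 492 candidates were marked, or 3.25% (exact 95% interval 1.87 to 5.23), against 4.46% of the candidates of all arms. The other 476 were unmarked, so most candidates on this chromosome were not in the reproducible list, and the name "Pita region" rests on the 16. All values named signal are the authors' own score for each peak. The depth of the libraries is unknown, and intervals on shares cover the counting of regions only.

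Sequences are given for the marked summits on which the comparison of DNA motifs turns, from the RefSeq assembly of the same build as the files, with each member called by its neighbouring genes. The first stretch, 201 bases around the strongest summit of the chromosome, lay between fuss and toy, and no 19-base match to either matrix described further on passed its threshold within it. The next lay beside Sox102F and the last in Asator. Capitals mark the best match to the AACC matrix in the Sox102F stretch and to the GGCG matrix in the Asator stretch. All 3 stretches lay outside annotated UTRs, and were 36.8%, 31.8% and 34.3% G or C, against 34.8% for the whole chromosome.
fuss and toy, chr4:979921-980121, plus strand: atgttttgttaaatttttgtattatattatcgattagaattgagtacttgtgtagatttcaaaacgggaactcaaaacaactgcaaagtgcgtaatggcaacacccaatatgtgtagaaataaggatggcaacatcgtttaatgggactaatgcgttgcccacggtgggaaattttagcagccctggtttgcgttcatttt
Sox102F, chr4:834987-835187, plus strand: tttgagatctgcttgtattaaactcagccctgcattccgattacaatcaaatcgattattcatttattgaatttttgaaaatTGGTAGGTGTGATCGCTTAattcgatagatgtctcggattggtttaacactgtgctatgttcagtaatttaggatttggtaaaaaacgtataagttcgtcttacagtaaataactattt
Asator, chr4:486644-486844, plus strand: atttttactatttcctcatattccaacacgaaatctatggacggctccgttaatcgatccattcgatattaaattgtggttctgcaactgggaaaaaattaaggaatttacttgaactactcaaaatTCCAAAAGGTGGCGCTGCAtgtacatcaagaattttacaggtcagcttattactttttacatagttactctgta

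The AACC matrix, a 19-base weight matrix grown from the 8-mer CTCAAACC, was learned only on reproducible summits of the other arms. The chromosome 4 sites that passed its threshold are shown so that they can be set beside strong sites elsewhere. Capitals mark the matched 19 bases, with 5 bases on either side, on the strand of the match. The scores, in log2 odds, were 11.9 beside Sox102F, 10.1 beside pan and 8.16 in a 3′ UTR at Cals. They were 7.60 and 6.76 in the long interval between dati and lgs, and 6.196 past the end of ey.
Sox102F, chr4:835064-835092, minus strand: cgaatTAAGCGATCACACCTACCAatttt
pan, chr4:69061-69089, plus strand: tgagtTTATCATGTACATAATCCAttcta
Cals, chr4:1113035-1113063, minus strand: accatTTAGCGGTGTTCCACTCAAgtaga
dati and lgs, right, chr4:424801-424829, minus strand: ataggATATTGCGTTCAGCCACCAgatgg
dati and lgs, left, chr4:406948-406976, plus strand: ccattACAGCAAATATAAAAACAAatcac
ey, chr4:721972-722000, plus strand: atttaTTTATTTGGACACGAACCAatgaa
For comparison, the strongest matched summits of 3 other arms scored 17.6, 19.1 and 18.2.
summit on chromosome arm 2L, signal 4711, chr2L:18152478-18152506, minus strand: accacTTAGCCGAGTTATCCACCCgctag
summit on chromosome X, signal 4593, chrX:3719858-3719886, minus strand: gttacTTAGCGTGTGCACCAACCAtagtt
summit on chromosome arm 3R, signal 4576, chr3R:31219691-31219719, minus strand: aatgtGTAGCCAGGACTTGCACCGtggat

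The GGCG matrix, grown from AGATGGCG, resembles the core recognised by the insulator protein CTCF. Its sites within 100 bp of marked summits are shown because the AACC matrix was weak or below its threshold at those summits, except a weaker site of 8.27 at pan. Their scores were 18.9 in Asator, 18.95, 14.1 and 16.9 between dati and lgs, 17.1 at an internal promoter of pan, and 16.1 between Sox102F and fd102C. The site at the internal promoter of pan lay at −76 bp, outside the window of 50 bp used for counts, and the left-hand dati and lgs summit had a second site of 14.2 nearer to it. The right-hand dati and lgs site overlapped the AACC site of the same summit.
Asator, chr4:486766-486794, plus strand: aaaatTCCAAAAGGTGGCGCTGCAtgtac
dati and lgs, left, chr4:407023-407051, plus strand: tcattTCCCACAGAGGGCGCCTGTagtgg
dati and lgs, middle, chr4:416571-416599, plus strand: acatcAGATATAGATGTCGCCATGcatta
dati and lgs, right, chr4:424789-424817, minus strand: gttcaGCCACCAGATGGTGCTTGCttcca
pan, internal promoter, chr4:89831-89859, minus strand: ccttcAGATATAGATGGCGCCATGtaatt
Sox102F and fd102C, chr4:836034-836062, plus strand: taattACCAACAGATGGCACTTTTgctac

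The 16 marked summits lay in or near the genes fuss, toy, Asator, pan, Cals, sv, Sox102F, fd102C, dati, lgs, ey and bt. The strongest, at chr4:980021, lay between the genes fuss, which encodes a Ski/Sno family protein, and toy, a Pax6 transcription factor of eye development. It was 1532 bp from fuss and 9704 bp from toy. Its signal was 3043 in the pooled list, 1219 in replicate 1 and 1813 in replicate 3, where it ranked 28, 48 and 21 of 30000. The strongest unmarked candidate of the chromosome, at chr4:984900, lay in the same interval, 4825 bp from toy, with signals of 141, 75.1 and 72.5 in the 3 lists.

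The second summit lay in an intron of Asator, which encodes a tau tubulin kinase homologue, 711 bp from a transcription start. Its signals were 2031 pooled, 862 in replicate 1 and 1173 in replicate 3. At pan, the TCF factor that acts at the end of the Wnt pathway, a summit 482 bp before the gene had signals of 1788, 560 and 1163. A weaker summit 207 bp to its right, in the same interval chr4:68494-69421, had 1383, 284 and 877. The pair thus straddled a single enriched stretch and was the strongest promoter signal of the chromosome.

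A second pair lay at an internal promoter of pan, 434 and 228 bp from the start, and was among the weakest marked summits. Its signals were 296 and 180 pooled, 111 and 49.6 in replicate 1, and 173 and 118 in replicate 3. In a 3′ UTR at Cals, a calsyntenin gene of the synapse that overlaps sv on the opposite strand there, the summit had 1759, 739 and 994. The gene sv encodes a Pax2 factor of sense organ development.

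Between Sox102F, a Sox-family gene, and fd102C, a forkhead gene, 1 interval of 1489 bp (chr4:834792-836280) held 3 summits. Their pooled signals were 1329, 1084 and 368, against 565.7, 492.5 and 401.2 in replicate 1 and 798, 655 and 587 in replicate 3. They lay 1476, 694 and 1678 bp from Sox102F. The weakest of them in the pooled list was closer behind the other 2 in each replicate. Its summit lay 76 bp from the pooled one in replicate 1 and 61 bp in replicate 3. The order of the 3 was the same in each list, and only the gaps between them differed.

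The long interval between dati, a zinc-finger gene, and lgs, the BCL9 homologue that joins the Wnt complex, held 3 marked summits far from any protein-coding start. Their pooled signals were 744, 558 and 394, with 298, 234 and 170 in replicate 1 and 452, 325 and 228 in replicate 3. The left one was 11387 bp from dati and the right one 12165 bp from lgs.

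At ey, the other Pax6 gene of eye development, marked summits lay at both ends. The promoter summit, 77 bp from a start, had signals of 365, 137 and 214. Past the gene, 831 bp from its end and before bt, the gene of the giant muscle protein projectin, the summit had 518, 232 and 279. A close summit 203 bp further had 152, 81.7 and 62.2 and was the weakest marked candidate of the chromosome.

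**Figure D1:**
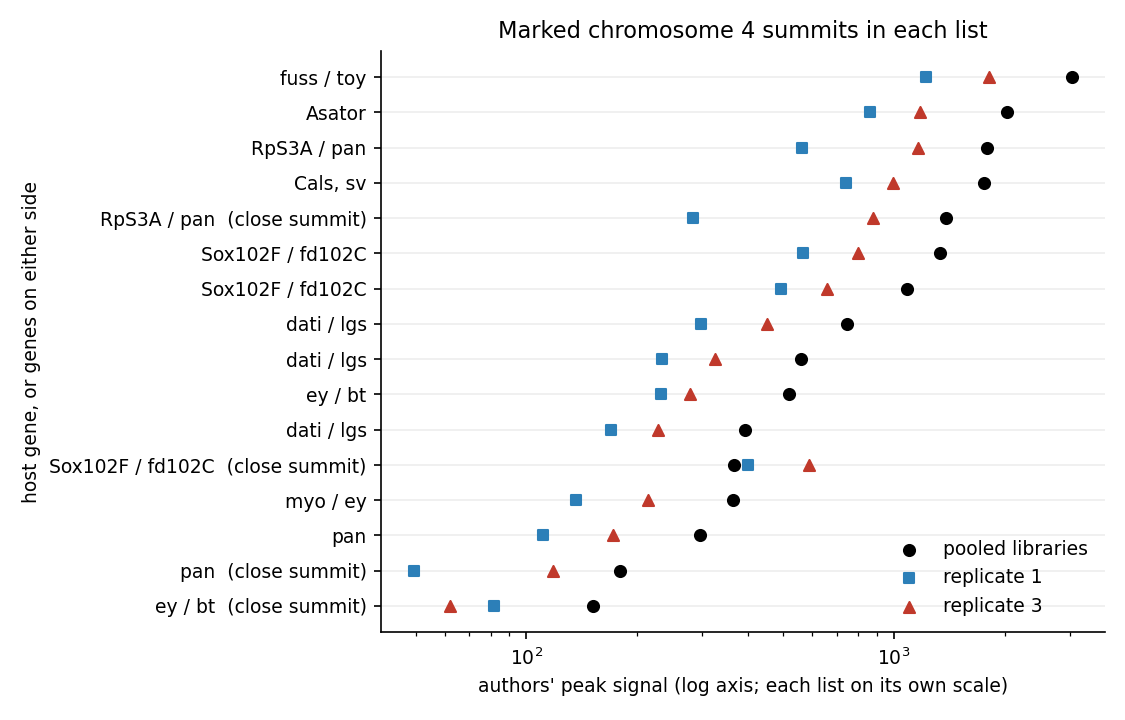
Authors' peak signal (log axis, each list on its own scale) of the 16 marked summits of chromosome 4 in the pooled list (circles), replicate 1 (squares) and replicate 3 (triangles), named by host or flanking genes. Signals run from 152 past ey to 3043 between fuss and toy in the pooled list, and the order is nearly the same in each replicate.

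All 16 were found within 100 bp in both replicates, as were 96.4% of the marked summits of the other arms. Their replicate signals had a Spearman rho of 0.956 and a Pearson r of 0.946 on the log2 scale across summits, against 0.946 and 0.931 elsewhere. The IDR procedure selects on repetition between replicates, and the marked summits were also the strongest of the pooled list. These values are thus no independent measure of repetition. On the other arms 5 of the 1322 marked summits were found in neither replicate. Replicate 3 ranked 14 of the 16 higher than replicate 1 did, or 87.5%, against 44.5% of the 1275 marked summits of the other arms found in both replicates. Of the 16, 4 lay within 300 bp of a stronger summit, each 202 to 207 bp to its right, so the members rest on 12 separate places.

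The pooled signal of the marked summits had a median of 651, against 489 on the other arms. The unmarked ones on chromosome 4 ran from 26.4 to 141 with a median of 35.7, against 34.1 elsewhere. Marked and unmarked candidates did not overlap in signal on any arm, so in these lists the mark amounts to a cut in pooled signal. Over all arms the lowest signal in the IDR list was 143.9 and the highest of an unmarked candidate 143.7. The weakest marked and strongest unmarked summits of chromosome 4 had 152 and 141, at ranks 1298 and 1352. Each contrast of marked with unmarked candidates is therefore also one of strong with weak signal.

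Chromosome 4 held more candidates for its length than any other arm. It makes up 0.980% of the arms' length and held 1.64% of the candidates, or 365 per Mb. The large arms had 188 on the X to 245 on 2L, and the Y, 2.67% of the length, had 1 candidate. The number on chromosome 4 was 1.67 times what its length would give (exact binomial test, two-sided, adjusted over 7 arms, p = 8.37e-26). Against the arms of chromosomes 2 and 3 alone, without the X and Y, the ratio was 1.57. With all 7 arms the ratio was 1.40 in the list of replicate 1 alone (412 candidates) and 1.77 in that of replicate 3 (521). Reproducible summits were not denser beyond their counting error. There were 11.9 per Mb on chromosome 4, 11.8 on the X and 8.82 to 9.91 on the arms of chromosomes 2 and 3. The ratio to expectation was 1.22 on chromosome 4, from 16 summits (exact binomial test, adjusted p = 0.705). On the X, with 278 summits, it was 1.21 (exact binomial test, adjusted p = 0.00195). The share of candidates that were marked had an odds ratio of 0.717 against the other arms, which did not pass the test (two-sided Fisher's exact test p = 0.225, adjusted p = 0.315).

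**Figure D2:**
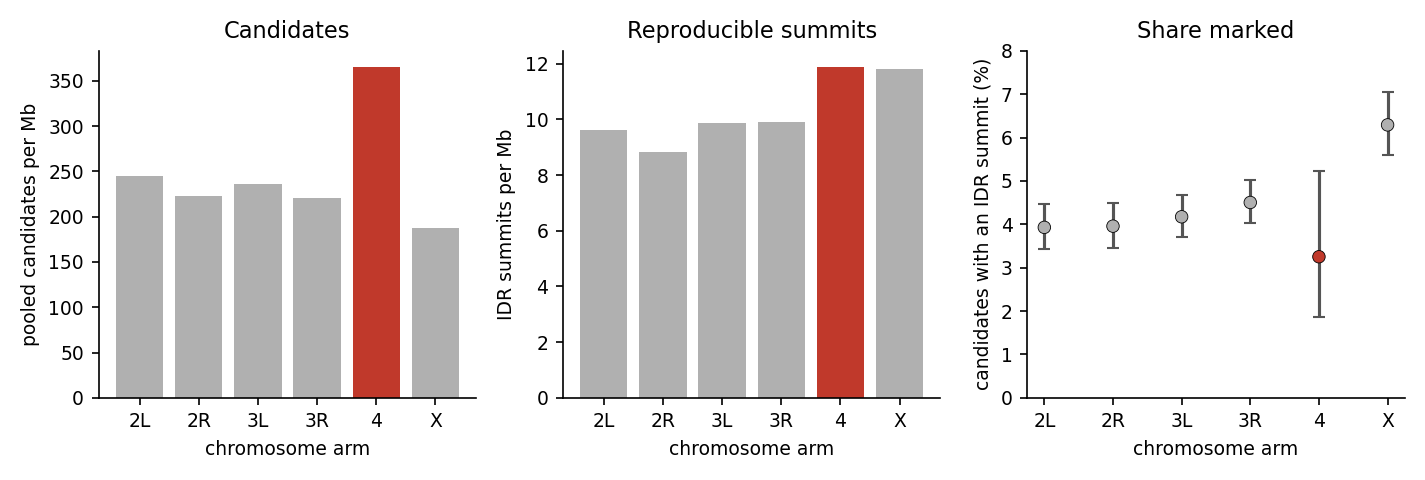
Candidates per Mb (left), IDR summits per Mb (middle) and the percentage of candidates marked with exact 95% intervals (right), by chromosome arm. Chromosome 4 stands highest in candidates at 365 per Mb, close to the X in reproducible summits, and lowest in the share marked at 3.25%, with an interval that overlaps those of every other arm shown except the X.

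Most of the unmarked candidates lay near the floor of the list, with 3 in 4 of them under a signal of 44.5. Found in both replicates within 100 bp were 109 of the 476, or 22.9% (exact 95% interval 19.2 to 26.9), against 18.7% on the other arms and 18.8% over all arms (odds ratio 1.29, two-sided Fisher's exact test p = 0.0243). In replicate 1 alone 42.4% were found against 44.8% elsewhere, and in replicate 3 61.1% against 52.8%. Chromosome 4 also held 1.37% of the replicate 1 candidates and 1.74% of those of replicate 3, on 0.980% of the length. Its unmarked candidates had a higher median signal, 35.7 against 34.1. The part of denser summits or of signal in the recall was not tested. With close summits dropped, the difference in both replicates did not pass the exact test (odds ratio 1.20, p = 0.125), nor did it when summits had to match within 50 bp (1.21, p = 0.194).

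Cut into 10 equal segments, the chromosome held from left to right 40, 50, 47, 67, 55, 52, 55, 56, 45 and 25 candidates. The right end was thin, with no candidate past position 1272841 of 1348131 and none marked in the last segment, where 66.4% of bases were annotated as mobile elements. The longest gap, 39595 bp, lay at the left end between the first candidates, and the median gap was 1691 bp. The marked summits fell in 6 of the segments, with 4 in the leftmost around pan and 4 in the one around Asator and the dati and lgs interval.

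Fewer candidates on chromosome 4 than elsewhere lay at promoters, within 500 bp of a transcription start. There were 37 such summits, or 7.52%, against 17.1% on the other arms (odds ratio 0.395, Fisher's exact test adjusted over 7 classes, p = 9.43e-09). Coding exons held more, 119 summits or 24.2% against 18.6% (odds ratio 1.40, exact test, adjusted p = 0.00833), and this call was lost with a promoter window of 250 bp (1.27, adjusted p = 0.0673). Introns held 42.7% against 37.6% (1.24, exact test, adjusted p = 0.0501), just outside the threshold of 0.05. The intron call was gained under 4 of 6 alternatives, and without replicate 3 the odds ratio was 1.02. Intergenic sequence held 15.4% against 17.2% (exact test, adjusted p = 0.559). Beside these values, starts are sparser on this chromosome, with 59.3 protein-coding genes per Mb against 93.3 to 113 on the large arms, and 10.7% of its bases lay within 500 bp of a start against 12.6 to 14.9%. Their part in the difference was not tested.

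Marked summits lay at promoters more often than unmarked ones on the same chromosome. They did so in 5 of 16 cases, or 31.2% (exact 95% interval 11.0 to 58.7), and the unmarked in 32 of 476, or 6.72% (4.64 to 9.36), with an odds ratio of 6.31 (two-sided Fisher's exact test p = 0.00435). All 5 were at pan or ey. The call rests on 3 places, and with close summits dropped the odds ratio was 4.45 (exact p = 0.0527). On the other arms the same shares were 61.1% and 15.01%.

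Against the marked summits of the other arms, those of chromosome 4 lay more in intergenic sequence. This comparison was added after the values had been seen. Of the 16, 9 were intergenic, or 56.2%, against 265 of 1322, or 20.05% (odds ratio 5.13, Fisher's exact test adjusted over 7 classes, p = 0.0115). They were the summits at fuss and toy, Sox102F and fd102C, dati and lgs, and past ey. The lower share at promoters, 31.2% against 61.1%, missed the threshold (odds ratio 0.289, Fisher's exact test, adjusted p = 0.0685). With close summits dropped, 7 of 12 were intergenic against 21.6% (5.09, exact test, adjusted p = 0.0456).

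**Figure D3:**
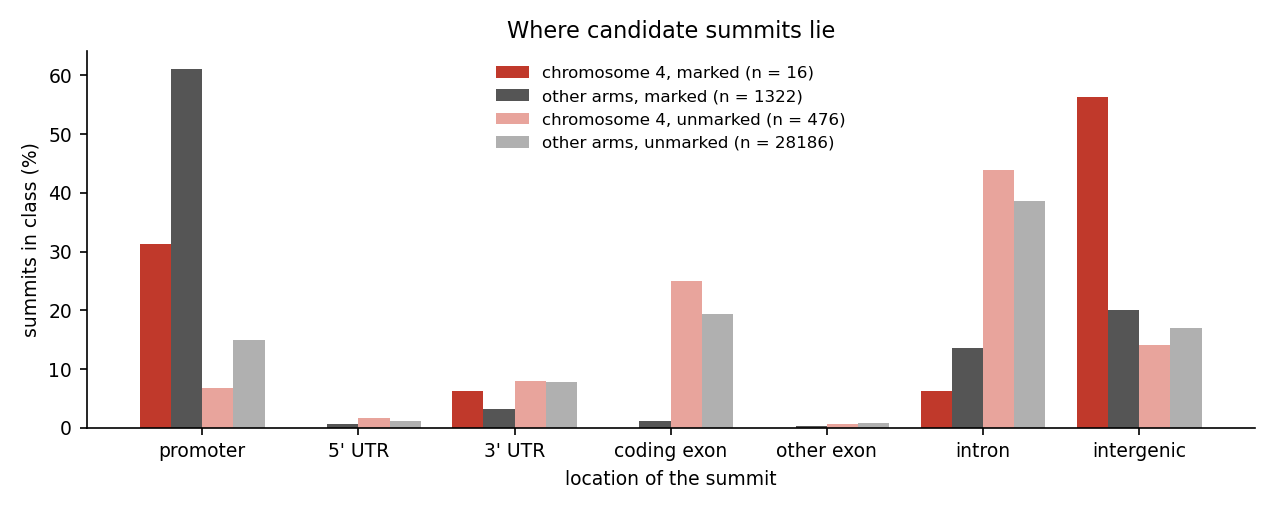
Percentage of candidate summits in each location class, for marked and unmarked candidates of chromosome 4 and of the other arms. Marked summits of chromosome 4 were 56.2% intergenic and 31.2% at promoters, against 20.05% and 61.1% of marked summits elsewhere.

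Of the 80 protein-coding genes of chromosome 4, 18 had any candidate within 500 bp of a start, or 22.5%, against 27.4% over all arms. A marked summit was there for 2 genes, pan and ey, or 2.50% against 5.68% over all arms. With candidates inside genes counted as well, 74 of the 80 had one, or 92.5%, against 59.5% over all arms, and 5 had a marked summit, or 6.25%, against 7.1% over all arms. Beside these values, genes covered 78.95% of the chromosome, against 64.55 to 74.58% of the large arms, and candidates were denser on it. The part of either in the 92.5% was not tested. The genes were also described in 5 lists by role, together 53 genes. Their counts of genes with any candidate are to be read against the 92.5%, since nearly every gene of the chromosome had one. Counts with a candidate at a promoter are to be read against 22.5%, and counts with a marked summit against 6.25%.

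In the list of 13 developmental transcription factors, all had a candidate, 5 had one at a promoter, and 3 held a marked summit: pan (1788), sv (1759) and ey (365). Over the 80 protein-coding genes of the chromosome these shares were 92.5%, 22.5% and 6.25%. The other genes of the chromosome with a marked summit were Asator and Cals, and that of Cals is the same summit as that of sv. The lists were drawn up with results known, so the count is a description. The best unmarked candidate of the list was 370 bp from a start of Mitf, the microphthalmia factor that controls lysosomal genes, with a signal of 111 in the pooled list and 74.3 in replicate 3, while replicate 1 had no summit within 100 bp of it. An intron of ci, the factor that carries Hedgehog signals, held one of 92.7. The summits beside fuss, Sox102F and dati were not counted here, since they lay outside those genes and over 500 bp from their starts.

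When neighbours were counted as well, all 12 separate marked places lay in, or next to, a gene of that list, on either side. Of the unmarked candidates 294 of 476 did so, or 61.8%, and of positions spaced 1000 bp apart along the chromosome 51.5%. Counting flanking genes only for summits outside genes, the shares were 11 of 12, 34.7% and 31.0%. The summit that then fell out was that in Asator, whose neighbour on the right is zfh2. The list was drawn up with earlier results of these data known, and these shares are a description with no test.

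Among the 13 signalling and axon guidance genes, all had a candidate and Asator alone a marked summit. The next were 70.8 in Eph, an axon guidance receptor, and 60.4 in myo, a TGF-beta family ligand. Among the 12 genes of synapse, transport and muscle, all had a candidate, and the marked summit was that in Cals, already counted for sv. A candidate in mGluR, the glutamate receptor, had 85.1, and one in unc-13, which primes synaptic vesicles, 75.8.

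The 10 chromatin, RNA and translation genes had no marked summit and 9 had a candidate. The highest, 110, was a single summit 244 bp from a start of Tdg, a DNA glycosylase gene, and 406 bp from Pur-alpha on its other side, with 33.3 in replicate 1 and 63.3 in replicate 3. It was followed by 67.7 in gw, the GW182 gene of microRNA silencing. The gene without a candidate was RpS3A, a ribosomal protein gene that neighbours pan, which was named after its values had been seen. The 5 genes of mitochondria and the cytoskeleton had no marked summit, and their best were ND-49, a subunit of respiratory complex I, at 78.2, ATPsynbeta, a subunit of ATP synthase, at 68.4, and Ank, an ankyrin, at 48.96. Of the remaining strong unmarked candidates, one of 95.3 lay 1747 bp from Sox102F.

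Many candidate summits of chromosome 4 lay in mobile elements, and no marked one did. Mobile elements, the annotated transposon copies of the genome, held 95 of the 492 summits, or 19.3% (exact 95% interval 15.9 to 23.1), against 218 of 29508 elsewhere, or 0.739% (odds ratio 32.2, two-sided Fisher's exact test p = 1.34e-93). Mobile elements covered 24.8% of chromosome 4 and 5.20% of the other arms, so summits fell in them at 0.779 times their share of the length on chromosome 4 and at 0.142 times elsewhere. The copies were also shorter here, with a median of 246 bp against 372 bp. How far length or the mapping of reads to repeats set these shares was not tested. Among marked summits 0 of 16 were in mobile elements, with an upper bound of 20.6%. On the other arms such summits were rare there too, with 6 of 1322, or 0.454%. The share of the unmarked candidates of chromosome 4, 95 of 476 or 19.96%, lay below that upper bound.

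INE-1, a short and abundant element of the fly genome, accounted for 67 of the 95, or 70.5%, with 344 copies covering 7.23% of the chromosome. The DNA element 1360, which covered 4.12%, and Cr1a, a retroelement, held 6 summits each. The strongest candidate in a mobile element, also named after its values had been seen, lay in an INE-1 copy in the 3′ UTR of Tdg, with signals of 88.7 pooled, 44.4 in replicate 1 and 44.2 in replicate 3. Outside mobile elements the candidates of chromosome 4 were at 391 per Mb, against 197 to 255 per Mb on the large arms. The part of these elements, or of the mapping of reads near them, in the density was not tested.

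**Figure D4:**
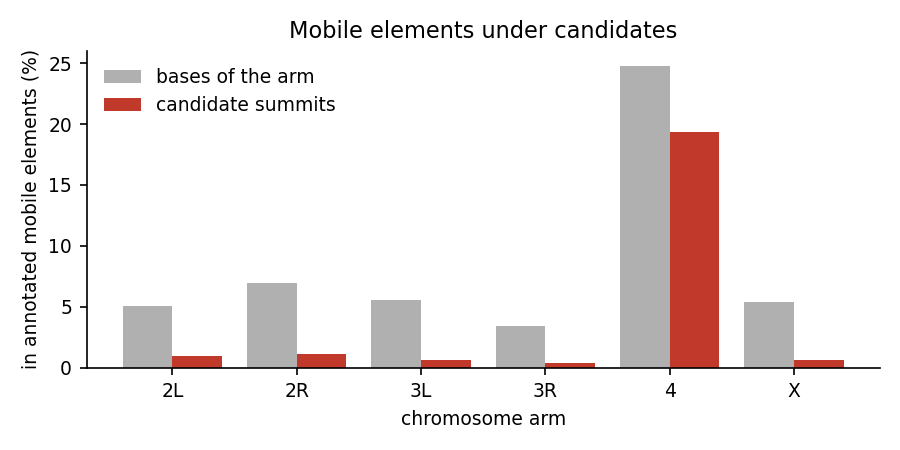
Percentage of bases (grey) and of candidate summits (red) in annotated mobile elements, by chromosome arm. On chromosome 4 the shares were 24.8% and 19.3%, while on each other arm shown summits in mobile elements were far below the share of bases.

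The AACC matrix passed its threshold at a minority of the marked summits of chromosome 4, and a difference from the other arms in that share did not pass the test over all 16 summits or over the 12 places. The threshold, 6.15, was passed by 5% of the 2160 windows flanking the summits it was learned from, within 50 bp on either side. On chromosome 4 it was passed under 6 of the 16 marked summits, or 37.5% (exact 95% interval 15.2 to 64.6), against 54.5% of 1322 elsewhere (Fisher's exact test, p = 0.210), and in 3 windows 250 bp to the right and in 2 to the left. The differences from the flanks did not pass (exact McNemar test, p = 0.508 and 0.289). With close summits dropped it was passed under 5 of 12, or 41.7%, against 701 of 1080 on the other arms, or 64.9% (Fisher's exact test, odds ratio 0.386, p = 0.127, adjusted over 6 comparisons p = 0.315).

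Of those 12 places, 6 had a signal of 914 or more, a limit taken from the median of chromosome 4 itself after the data had been seen, so what follows describes these places and is no independent test. Of these, 2 had a match, at Sox102F and in Cals, or 33.3% (exact 95% interval 4.33 to 77.7). On the other arms 340 of 397 places of at least that signal had one, or 85.6% (81.8 to 88.9). The best scores under the summits without a match were 3.12 at fuss and toy, 2.92 in Asator, −1.41 between Sox102F and fd102C and −3.78 at pan. Where a match was found its score was low, with a median of 7.88 and a highest value of 11.9 over the 6 matched summits, against a median of 16.5 over those of the other arms. The matrix was learned on those same summits of the other arms, which raises its share and scores there, and on none of chromosome 4.

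Matches did lie near several of these summits. Within 250 bp, with distances to the left negative, the summit at fuss and toy had one of 13.6 at −153 bp, that between Sox102F and fd102C one of 11.8 at −219 bp, and that before pan one of 10.1, which is the site of the close summit to its right. The threshold of 6.15 was kept from the window of 50 bp, so the 5% of flanks that set it does not hold for this wider window. In it 9 of the 12 places had a match, or 75%, against 865 of 1080, or 80.1%, on the other arms. Of the 476 unmarked candidates of chromosome 4, 112 had one, or 23.5%. Under unmarked candidates of chromosome 4 the matrix was found at 4.83% of summits, and at 4.20% and 4.41% of windows to the right and left. The GGCG matrix was found at 4.41% of those summits, against 1.89% and 1.68% of the windows (exact McNemar test, unadjusted p = 0.0357 and 0.0241). Unmarked summits of the other arms held it more often, at 6.51%, against 5.94% and 6.07% of their windows (exact McNemar test, unadjusted p = 0.00474 and 0.0297). The AACC matrix was at 8.04% of them, against 7.12% and 7.44% (exact McNemar test, unadjusted p = 4.1e-05 and 0.0084).

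The GGCG matrix, which was added after the data had been seen, passed its threshold of 8.07 under 5 of the 16 marked summits, or 31.2%, against 221 of 1322 elsewhere, or 16.7% (odds ratio 2.27, Fisher's exact test, adjusted p = 0.315). It lay under all 3 summits between dati and lgs, in Asator and between Sox102F and fd102C. The summit beside Sox102F scored 8.001, just below. Its flanks of 250 bp held 1 match on either side of the 16, and the differences from the flanks did not pass (exact McNemar test, p = 0.219 for each side). The chromosome as a whole had 34.8% G or C against 41.4% to 42.6% on the large arms, and the part of base composition in the scores was not tested.

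**Figure D5:**
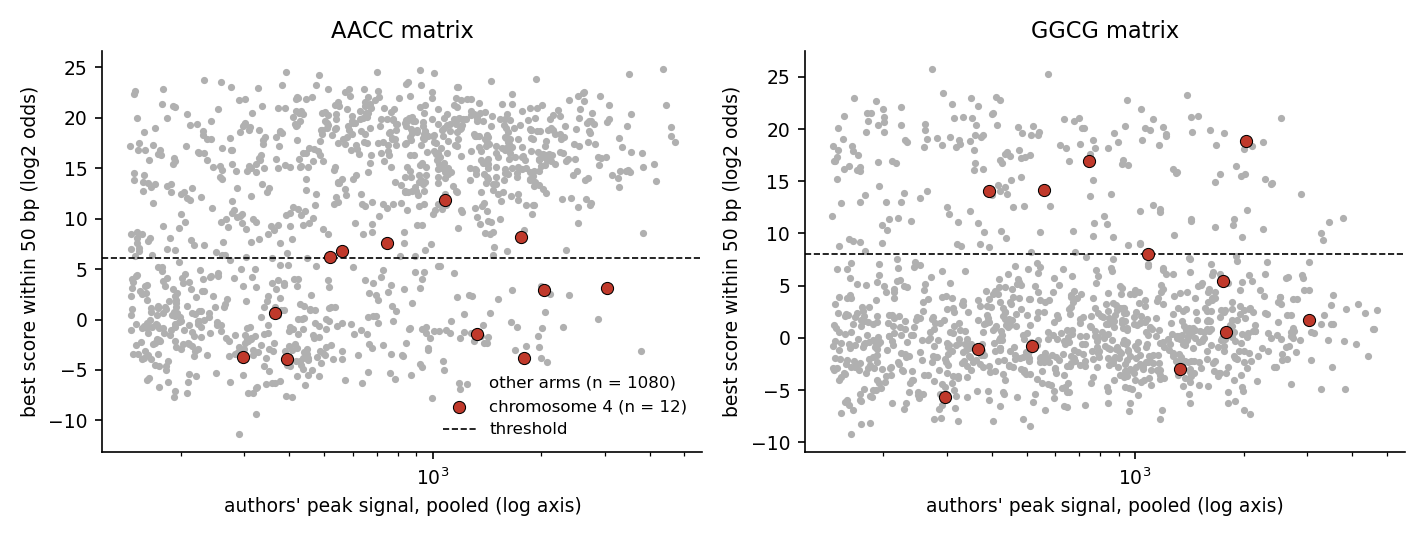
Best score within 50 bp of each reproducible summit, close summits dropped, for the AACC matrix (left) and the GGCG matrix (right) against the pooled signal (log axis), with the threshold dashed. Chromosome 4 (red, n = 12) has no AACC score above 11.9, while the median score of matches on the other arms (grey, n = 1080), on which the matrix was learned, was 16.6, and 4 of its places pass the GGCG threshold.

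In the authors' lists on the older dm3 build, chromosome 4 held 468 of 30000 candidates and 15 IDR summits, all 15 of them within 100 bp of a candidate. The strongest had a signal of 3042 there and 3043 on dm6, so the choice of build moved the leading member little.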

How the data were processed

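ChIP-seq peak lists of 2 libraries of 1 group and of their pool, as the authors deposited them on dm6 and dm3, were used. Per the labels' protocols they are peaks and background given to IDR, and the final IDR list; how reads were aligned, which program called peaks and where IDR was thresholded was not given in the sources used here. Each peak's signal is a value the authors deposited, used to describe peaks and to order them inside 1 list. The labels give pita in the antibody field and an anti-GFP precipitation in the description. Each candidate list on dm6 held 30000 entries, so densities are relative to the other arms. Sequencing depth is unknown.

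Summits were matched within 100 bp and placed against Ensembl release 115 genes (promoter, within 500 bp of a start, first; then UTRs, exons, introns) and RefSeq mobile elements. Shares were compared with Fisher's exact test and densities with the exact binomial test (SciPy 1.17.1), with Benjamini-Hochberg adjustment and exact Clopper-Pearson 95% intervals. Neighbouring regions are not independent replicates, so these tests describe the lists and not a spread over embryos. Matrices of 19 bases were learned on IDR summits of the other arms, less summits within 300 bp of a stronger one. Scripts (Python 3.11.15, NumPy 2.4.6, pandas 2.3.3) were tested on simulated data. Members, lists and tests were chosen with earlier results of these data known. Named were all marked candidates, the 5 strongest unmarked ones and, per list, the genes with a marked candidate and the 3 with the highest signal. Alternatives were other matching distances, interval overlap, promoter windows, close summits dropped, the stronger part of the IDR list, autosomal arms only, each replicate alone, dm3, and other matrix windows and thresholds.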

Additional observations from a re-analysis of the deposited data

How the results depend on the processing

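Of 95 alternatives tried over the results, 75 were counted as the same. For single comparisons this meant the same direction and side of the threshold. For the location classes as a set it also took in the 4 alternatives in which 3 classes passed in place of 2. The surplus of candidates (1.40 to 1.77 with either replicate left out), the low promoter share and the mobile element difference held under each alternative run. The excess of promoters among marked summits lost its call with the stronger part of the IDR list (odds ratio 3.19, exact p = 0.169), close summits dropped (4.45, p = 0.0527) and a 250 bp window (5.09, p = 0.0814). The recall difference lost it at 50 bp (1.21) and with close summits dropped (1.20). With a 250 bp promoter window 1 location class passed in place of 2, and 3 passed in 4 alternatives in which introns gained the call: close summits dropped (1.27, exact test, adjusted p = 0.0438), the arms of chromosomes 2 and 3 alone (1.29, 0.0143), without replicate 1 (1.25, 0.0323) and a 1000 bp window (1.29, 0.0140). The share of marked summits with the AACC matrix was 12.5% with 25 bp and fell below its right flank, 12.5% with 100 bp, 6.25% at the threshold passed by 1% of flanks and 60% in the stronger part of the IDR list. Of the differences not called in any setting, some changed sign: odds ratios were 0.669 and 0.981 for 5′ UTRs without replicate 1 and 3 and 1.00 with a 1000 bp window, 0.913 and 0.744 for 3′ UTRs and 0.966 at 250 bp, 1.31 for other exons at 1000 bp, and 1.15 for intergenic sequence without replicate 3, where without replicate 1 it kept its direction at 0.886. The cause was not tested. Density on dm3 was not run, since lengths of that build were not used here. No paired analysis was possible because the libraries form 1 group.

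Limits are the small number of marked places, 12 once close summits are dropped, the lack of control libraries here, and unknown depth.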
